A study of Homo sapiens with 16 samples.

Results

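The difference between 2 LP-1 lines was measured while both were exposed to the proteasome inhibitor bortezomib, using 8 of the 16 arrays of the series. LP-1 is a human multiple myeloma (MM) cell line. One line had been transduced with a lentiviral construct carrying cIAP2 followed by an internal ribosome entry site and eGFP (LP-1-cIAP2-eGFP), and the control had been transduced with the eGFP construct alone (LP-1-eGFP). Both had been sorted for eGFP. Arrays whose title gave bortezomib 10 nM were taken, with the line read from the title, which gave 2 arrays of each line after 6 h and 2 after 24 h. The other 8 arrays hold untreated cells of the same lines and times and were used only where stated. Each line was 1 transduced and sorted population, so that differences between separate transductions were not measured and the p-values below cover the spread between replicate cultures.

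cIAP2, encoded by BIRC3, belongs to the inhibitor of apoptosis proteins. With cIAP1 and the adaptors TRAF2 and TRAF3 it marks the kinase NIK for degradation, which holds the non-canonical NF-κB pathway in check, while in signalling from TNF receptors the same ubiquitin ligases promote canonical NF-κB activation. According to the study, LP-1 carries a TRAF3 deletion or mutation and lacks the TRAF3 domain needed to bind NIK. NF-κB dimers switch on genes for chemokines, adhesion molecules, death receptors, antigen presentation and their own inhibitors. Bortezomib blocks the chymotrypsin-like activity of the proteasome, which hits plasma cells hard because they make large amounts of secreted protein, and it raises heat shock, unfolded protein and oxidative stress responses. In these terms the comparison asks which transcripts set the cIAP2 line apart from its control when the drug is present.

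Each array was a single-colour Agilent whole human genome array with 58717 gene spots, and no gene spot was saturated on the 8 arrays. The log2 median signal lay between 5.73 and 6.64 on 7 arrays, and 49.0% to 68.8% of gene spots were detected there, that is, marked by the scanner software as well above background. LP-1-cIAP2-eGFP at 24 h, replicate 1, stood apart with a log2 median of 3.18 and 35.5% of spots detected, and it differed from its replicate with an SD of 1.41 log2 units, against 0.44 to 0.66 for the replicate pairs of the other 3 conditions. It is called the dim array below, is the first of the pair of 24 h values given for that line, and the main counts of called probes and genes, in all and by list, were also made without it. The arrays lay on 2 slides. All 4 LP-1-cIAP2-eGFP arrays and 1 control array (24 h, replicate 1) were on slide 1, and the other 3 control arrays were on slide 2, so that at 6 h line and slide cannot be told apart in these arrays alone.

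Both lines carried the markers of plasma cells. Of 10 plasma cell markers, 9 were detected on all 8 arrays, XBP1 was the most abundant, and none differed between the lines past the thresholds given below. Of 10 B cell markers, 3 were detected on all 8 arrays and 4 (PAX5, MS4A1, CD22 and CD79B) on none, with CD79A the most abundant. Of 11 epithelial and stromal genes, 2 were detected on all 8 arrays and 5 (CDH1, COL1A2, COL3A1, LUM and PDGFRB) on none, with KRT8 the most abundant. Of 9 T and NK cell genes with a probe, 2 were detected on all 8 arrays and each on at least 1, with CD4 the most abundant. Of 7 myeloid genes with a probe, 1 was detected on all 8 arrays and 1 (CSF1R) on none, with CSF3R the most abundant. The summed linear signal of the B cell markers was 11685 on the dim array and between 4357 and 8778 on the other 7, and the dim array was also the highest for T and NK cell genes (53998, against 11896 to 19827), myeloid genes (1190, against 374 to 571) and epithelial and stromal genes (3566, against 1326 to 2264). Their part in the line difference was not tested, and leaving out the dim array removes that excess.

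Far more transcripts were lower in LP-1-cIAP2-eGFP than were higher. Of 29089 probes tested, 710 (2.44%) passed an adjusted p of 0.05 and a change of 2-fold in the line difference averaged over both times (limma with time as covariate, Benjamini-Hochberg adjustment), 167 higher and 543 lower. "Rose" and "fell" below describe LP-1-cIAP2-eGFP against the control on this call. Counted as genes, each by its brightest probe, 117 of 15083 rose (0.776%) and 362 fell (2.4%), while the median difference over all genes was -0.05 on the log2 scale. Without the dim array 976 probes passed (3.36%), 249 higher and 727 lower, which was 171 genes higher (1.13%) and 475 lower (3.15%). The same 29089 probes were tested there, chosen by a filter on signal that still used the dim array. The calls with and without the dim array shared 659 probes. The arrays of the lines were apart in the same direction at both times for 692 of the 710 probes (97.5%), against 21.9% of all tested probes, though the call itself favours such probes.

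A probe was tested if some condition had it detected on each of its arrays, and 6745 tested probes were bright enough only in control conditions and 413 only in LP-1-cIAP2-eGFP conditions. A probe that passed through only 1 line was detected more often there by the construction of the filter. Of 15124 tested probes detected on all 8 arrays, 117 were called higher and 201 lower. The number of calls also changed with the way slide was modelled. With slide as a block within the 8 arrays 30 probes passed the thresholds (8 higher, 22 lower). There EMC10 was at 8.28 (against 8.97 without the block), HLA-DOA at -2.50 (-2.62) and FAS at -1.92 (-1.82). SPP1 at 3.01 (3.78) and SLC12A7 at -3.74 (-5.07) moved more. The SE was larger with the block for each of these genes. RBM47 was at 5.91 (7.03) with a smaller SE (0.286 against 0.362). The difference of BIK was smaller with the block, at -1.10 (-1.75), and that of ITGA8 larger, at 3.62 (2.73). Whether the differences depended on slide was not tested. With slide as a block in a model of all 16 arrays, where each line had arrays on both slides, 842 passed (233 higher, 609 lower). The brightest probes of the 113 genes called higher and 358 called lower that were measured on both slide 1 arrays of 24 h other than the dim one all differed in the called direction within that slide, against 10783 of 14828 genes in all. Those 2 arrays also entered the calls, so this is a description. Left out in turn, single arrays moved the count of called probes. It was 338 without LP-1-cIAP2-eGFP 6 h replicate 1, 343 without its replicate 2, 218 and 267 without control 6 h replicate 1 or 2, and 372 and 300 without control 24 h replicate 1 or 2.

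EMC10, RBM47 and PSAT1 were among the genes that rose under the naming rule. Each was detected on at most 1 of 4 control arrays, so their order among the rises was not measured. EMC10, a subunit of the endoplasmic reticulum membrane protein complex, had log2 signals of 12.60 and 12.70 at 6 h and 12.22 and 12.36 at 24 h in LP-1-cIAP2-eGFP against 2.62 and 4.11 at 6 h and 4.06 and 3.24 at 24 h in the control. The control was undetected on every array, so the difference of 8.97 (SE 0.369, adjusted p = 0.000378) is given as at least 231-fold, a lower bound set by the dimmest detectable signal of each control array. A second EMC10 probe differed by 0.92 and was not called, but it was called without the dim array (1.84, adjusted p = 0.0201). PSAT1, the aminotransferase of serine synthesis, gave 10.70 and 10.66 at 6 h and 9.46 and 9.98 at 24 h against 4.13 and 3.00 at 6 h and 2.88 and 2.69 at 24 h, a rise of 7.02 (SE 0.266, adjusted p = 0.000356) or at least 47.8-fold. The second PSAT1 probe was called too, with a smaller difference (2.44, adjusted p = 0.0342). RBM47, an RNA-binding protein, gave 12.10 and 12.04 at 6 h and 10.41 and 10.69 at 24 h against 4.36 and 4.93 at 6 h and 4.65 and 3.17 at 24 h and a difference of 7.03 (SE 0.362, adjusted p = 0.000634), although its second probe (2.08) was called only without the dim array (2.66, adjusted p = 0.00919). RBM47 was detected on 1 of 4 control arrays, so the size of its difference rests mostly on undetected signal. With normexp background correction and an offset of 50, which draws low signals together, the differences were 6.06 for EMC10, 3.95 for PSAT1 and 4.69 for RBM47, so the bounds hold for the scanner's processed signal only. For each of these 3 genes every LP-1-cIAP2-eGFP array lay above every control array.

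SLAMF7, CCL4 and SPP1 also rose. SLAMF7, the myeloma surface receptor that the antibody elotuzumab binds, gave 10.71 and 10.98 at 6 h and 10.54 and 11.22 at 24 h against 4.45 and 5.02 at 6 h and 5.85 and 6.42 at 24 h, a difference of 5.43 (SE 0.353, adjusted p = 0.00135). Its arrays did not overlap between the lines, and the SLAMF7 signal of the control was higher at 24 h than at 6 h. CCL4, a chemokine that draws monocytes and T cells and that NF-κB is known to drive, gave 11.93 and 11.02 at 6 h and 16 and 16 at 24 h against 6.30 and 6.76 at 6 h and 12.85 and 12.41 at 24 h, so that it was higher at 24 h than at 6 h in both lines and stood 17.9-fold higher in LP-1-cIAP2-eGFP (4.16, SE 0.388, adjusted p = 0.00467). SPP1 (osteopontin), a secreted bone matrix protein, gave 11.03 and 11 at 6 h and 11.09 and 11.11 at 24 h against 6.05 and 6.00 at 6 h and 8.57 and 8.50 at 24 h and rose by 3.78 (SE 0.481, adjusted p = 0.0125). Its level was flat over time in LP-1-cIAP2-eGFP, while the control was higher at 24 h. The other genes that rose under the rule were EVI2B, a leukocyte membrane protein (6.21, adjusted p = 0.00312, at least 29.4-fold), the casein pseudogene CSN1S2AP (5.33, adjusted p = 0.00284, at least 26.4-fold), the phospholipase PLAAT3 (3.37, adjusted p = 0.00150), and the cornified envelope genes SPRR2A (3.50, adjusted p = 0.00231), SPRR2E (3.42, adjusted p = 0.00302) and SPRR2F (3.05, adjusted p = 0.0134). The SPRR2 genes are near-identical copies, and their signals may not be separate.

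**Figure D1:**
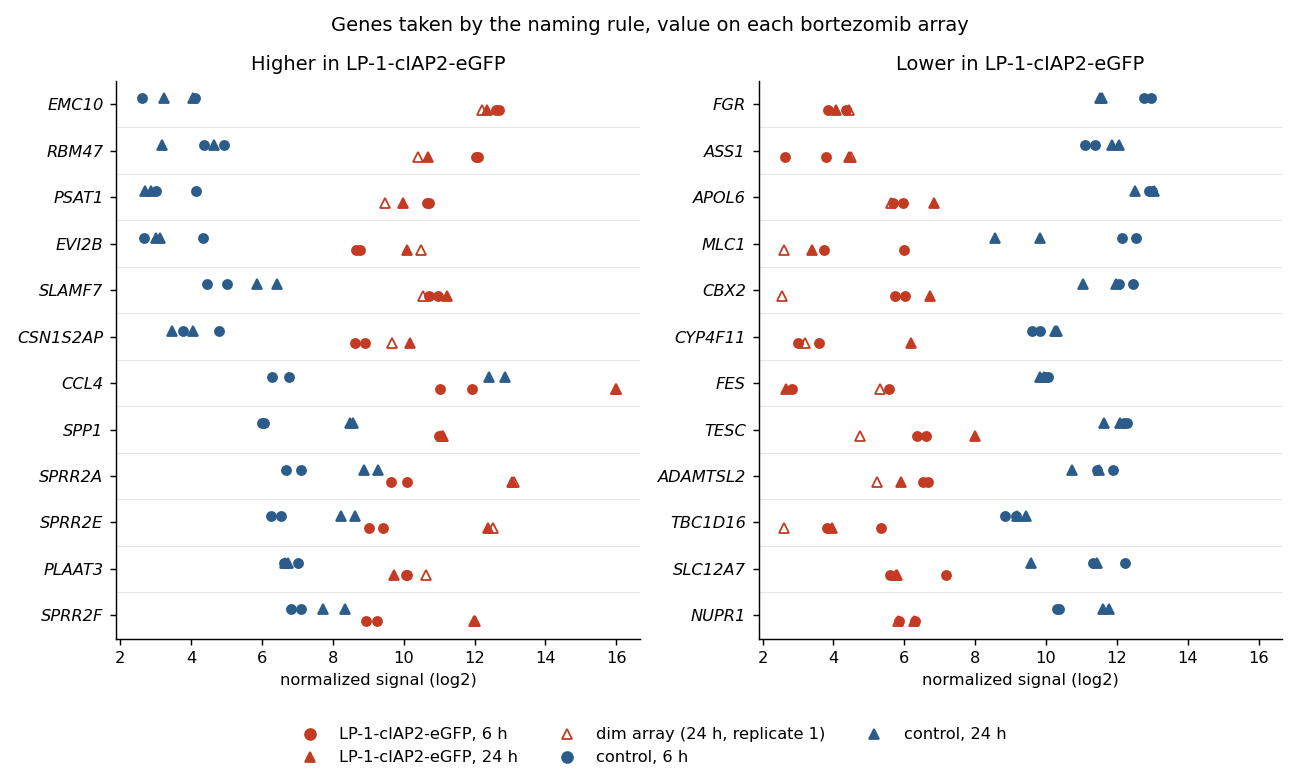
Normalized log2 signal on each of the 8 bortezomib arrays for the 12 genes with a rise (left) and the 12 with a fall (right) in LP-1-cIAP2-eGFP taken by the naming rule, from fitted differences; circles are 6 h, triangles 24 h, and the open triangle is the dim array. Genes were chosen with no overlap between red (LP-1-cIAP2-eGFP) and blue (control) points at either time, and the values run from 12.22 to 12.70 against 2.62 to 4.11 for EMC10 and from 3.84 to 4.45 against 11.53 to 12.96 for FGR.

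Among the genes that fell under the naming rule, FGR, ASS1 and MLC1 were detected on no LP-1-cIAP2-eGFP array, so their order among the falls was not measured. FGR, a Src-family tyrosine kinase of blood cells, gave 4.36 and 3.84 at 6 h and 4.45 and 4.08 at 24 h in LP-1-cIAP2-eGFP against 12.96 and 12.77 at 6 h and 11.57 and 11.53 at 24 h in the control. It was detected on no LP-1-cIAP2-eGFP array and fell by at least 104-fold (-8.02, SE 0.331, adjusted p = 0.000378). ASS1, argininosuccinate synthase of the arginine pathway, gave 2.65 and 3.78 at 6 h and 4.50 and 4.43 at 24 h against 11.39 and 11.10 at 6 h and 11.85 and 12.07 at 24 h, at least 68.7-fold lower (-7.76, SE 0.272, adjusted p = 0.000356) and called in both of its probes. APOL6, an apolipoprotein L family member, gave 5.67 and 5.95 at 6 h and 5.62 and 6.84 at 24 h against 12.91 and 12.98 at 6 h and 12.50 and 13.04 at 24 h and differed by -6.84 (SE 0.306, adjusted p = 0.000415). Another APOL6 probe was called too (adjusted p = 0.000433), and a further, dimmer one was not (-1.98, adjusted p = 0.212). These 3 genes were high on all 4 control arrays. FGR and ASS1 were detected on no LP-1-cIAP2-eGFP array, whereas APOL6 was detected on 2 of 4 and differed by -5.93 with normexp. MLC1, a membrane protein best known from astrocytes, gave 5.98 and 3.73 at 6 h and 2.60 and 3.39 at 24 h against 12.14 and 12.53 at 6 h and 8.55 and 9.83 at 24 h (at least 37.9-fold lower, adjusted p = 0.00349). NUPR1, a small stress-induced chromatin protein, gave 5.86 and 6.31 at 6 h and 5.82 and 6.27 at 24 h against 10.36 and 10.30 at 6 h and 11.76 and 11.60 at 24 h (-4.94, SE 0.315, adjusted p = 0.00131). Its control level was higher at 24 h than at 6 h, whereas LP-1-cIAP2-eGFP stayed between 5.82 and 6.31.

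The other genes that fell under the rule were the Rab GTPase-activating protein TBC1D16 (-5.23, adjusted p = 0.00602, at least 12.6-fold), the cytochrome P450 CYP4F11 (-6.00, adjusted p = 0.00682), the tyrosine kinase FES (-5.86, adjusted p = 0.0127), the calcium-binding protein TESC (-5.63, adjusted p = 0.00947), the secreted protein ADAMTSL2 (-5.30, adjusted p = 0.000508), the potassium chloride cotransporter SLC12A7 (-5.07, adjusted p = 0.00703) and the Polycomb protein CBX2 (-6.62, adjusted p = 0.0126). CYP4F11 and FES were each detected on 1 of 4 LP-1-cIAP2-eGFP arrays, and with normexp their differences were -3.44 and -3.61, against -5.86 for FGR and -5.17 for ASS1. CBX2 was detected on 2 of 4 of these arrays and differed by -4.90 with normexp and -5.74 without the dim array. Its call was lost in 8 of 24 settings. All 3 ADAMTSL2 probes were called, while for CBX2 the second probe differed by 0.57 in the other direction and was not called.

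Most MHC class II genes fell. These genes encode the alpha and beta chains that present peptides to CD4 T cells, the invariant chain CD74, the DM and DO proteins that edit the peptide load, and their master activator CIITA. All 17 were tested, of which 14 fell (82.4%, against 2.4% of all genes) and none rose, with a median difference of -1.64 against -0.05 over all genes. The count was again 14 without the dim array (median -1.51) and 14 with slide as a block over 16 arrays (median -1.55), but 0 with slide as a block within the 8 arrays and 8 without control 6 h replicate 1. Under the block within the 8 arrays HLA-DOA was at -2.50 (against -2.62 without it), HLA-DRB4 at -1.91 (-2.06), HLA-DQA1 at -1.89 (-1.90) and HLA-DRB5 at -1.54 (-1.88). Within slide 1 at 24 h, without the dim array, 16 of the 17 tested genes were lower (median -1.32), against 6304 of 14828 genes in all. The 6 B cell markers tested had a median of -1.02. CIITA is in both lists, so the 2 sets are not separate. None of the B cell markers was called with all arrays, 1 (CIITA) was lower without the dim array and 2 with slide as a block over 16 arrays. Their part in the fall of the MHC class II genes was not tested.

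HLA-DOA, which encodes the alpha chain of the DO modulator, fell most. Its log2 signal was 12.49 and 12.60 at 6 h and 10.73 and 11.18 at 24 h in LP-1-cIAP2-eGFP against 15.06 and 15.10 at 6 h and 13.52 and 13.80 at 24 h in the control, a difference of -2.62 (SE 0.148, adjusted p = 0.000787) or 6.16-fold, although its second probe was not called. CD74 gave 11.03 and 11.16 at 6 h and 9.35 and 10.16 at 24 h against 12.43 and 12.58 at 6 h and 11.43 and 11.81 at 24 h (-1.64, SE 0.221, adjusted p = 0.0148). HLA-DRA, the alpha chain shared by all DR molecules, gave 13.98 and 14.05 at 6 h and 12.24 and 12.90 at 24 h against 14.76 and 14.77 at 6 h and 13.90 and 13.94 at 24 h and only just passed at -1.05 (SE 0.200, adjusted p = 0.0429). Its fall was below 2-fold without the dim array (-0.86). At each time the lines did not overlap for any of these 3 genes, and in both lines the 24 h arrays were lower than the 6 h arrays.

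Among the classical chains, HLA-DRB4 (-2.06), HLA-DQA1 (-1.90), HLA-DRB3 (-1.88), HLA-DRB5 (-1.88), HLA-DQA2 (-1.81) and HLA-DRB1 (-1.64) fell by more than 1.5 log2 units, and so did HLA-DQB1 (-1.58) and the DM beta chain HLA-DMB (-1.63). HLA-DQB2 (-1.50), HLA-DPB1 (-1.37, 4 of 4 probes) and HLA-DPA1 (-1.20) completed the called genes. The DR and DQ genes have near-identical copies whose probes may share signal, so the number of separate transcripts among them is uncertain. CIITA gave 10.28 and 10.72 at 6 h and 5.19 and 7.33 at 24 h against 11.62 and 12.02 at 6 h and 9.41 and 9.82 at 24 h and did not pass at -2.34 (SE 0.600, adjusted p = 0.0986), but it did without the dim array at -1.70 (adjusted p = 0.0218). HLA-DMA (-0.82, adjusted p = 0.0359) stayed under 2-fold, and HLA-DOB (0.03, adjusted p = 0.921) did not pass.

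**Figure D2:**
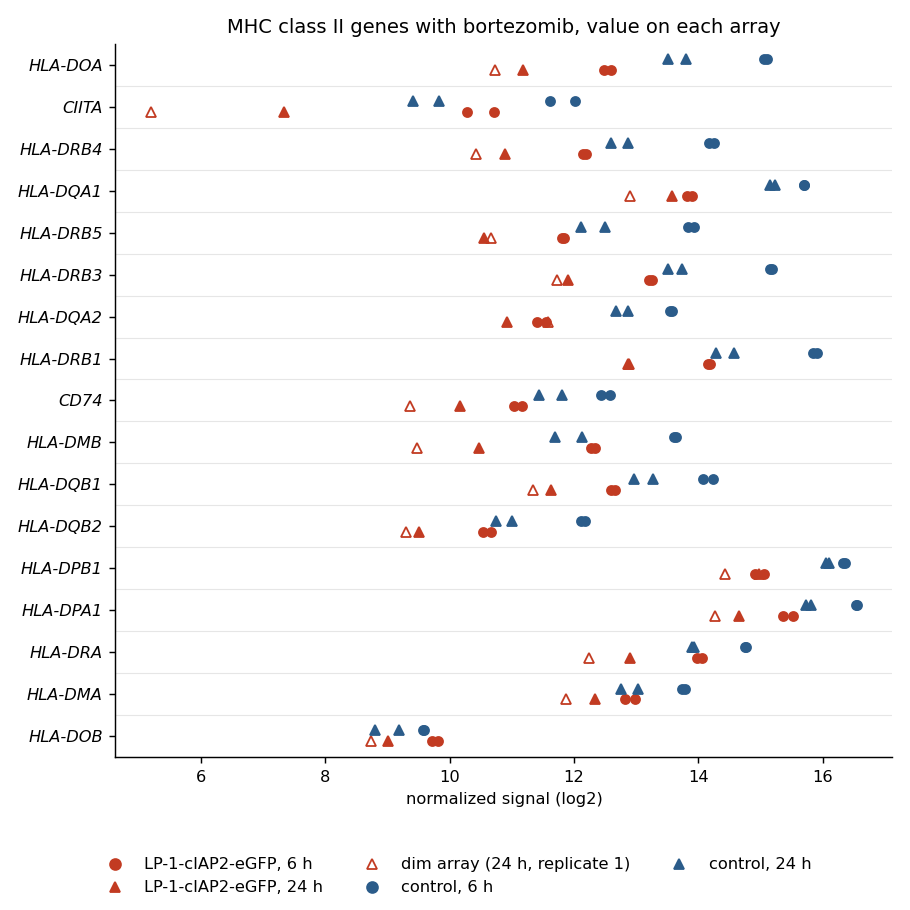
Normalized log2 signal of the 17 MHC class II genes on each of the 8 bortezomib arrays, ordered by the line difference; circles are 6 h, triangles 24 h, and the open triangle is the dim array. For HLA-DOA the LP-1-cIAP2-eGFP values, 10.73 to 12.60, lie below the control values, 13.52 to 15.10, while for HLA-DOB at the bottom the mean difference was 0.03.

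MHC class II promoters are known for a set of boxes read by the RFX and NF-Y factors, with CIITA recruited to them. The NF-Y element (Y box) was looked for as the letters CTGATTGG on both strands in the 250 bases before each start, using RefSeq promoters on GRCh38.p14. It was in 6 of the 13 MHC class II genes with a promoter in that table (46.2%), 5 of them among the 11 called ones, and in 3.985% of all 27305 promoters. Among tested genes with a promoter it was in 5.529%, in 3.409% of those that fell and in 5.595% of those not called. These 3 are shown, written 5′ to 3′ along the gene's strand with the box in capitals, because they lie in genes whose signal fell in LP-1-cIAP2-eGFP. The match is a description of the sequence.
HLA-DQB1 (chr6:32666729-32666783, minus strand): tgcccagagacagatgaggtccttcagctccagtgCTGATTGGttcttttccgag
HLA-DQA2 (chr6:32741285-32741339, plus strand): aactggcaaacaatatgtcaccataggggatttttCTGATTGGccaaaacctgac
HLA-DRB5 (chr6:32530361-32530415, minus strand): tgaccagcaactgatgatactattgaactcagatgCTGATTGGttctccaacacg

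Among interferon-stimulated genes, which hold the antiviral effectors and the sensors that interferon receptors switch on, 8 of 40 fell (20%, against 2.4% of all genes) and none rose, with a median of -0.66. Of the 40, 4 were detected on no LP-1-cIAP2-eGFP array and so were tested through the control alone. Genes detected on some arrays, such as PARP9, can also have passed the filter through only 1 line and were not counted. The count was 4 without the filter on signal, and of the 17 detected on all 8 arrays 1 fell when those probes alone were tested. Without the dim array 9 fell (median -0.51), with slide as a block over 16 arrays 7 did and within the 8 arrays 0. Under the block within the 8 arrays MX1 was at -3.30 (against -3.47 without it) and PARP9 at -2.48 (-3.15). IFITM1, which lacked a value on 1 array, had the same fit with and without the block (-3.57). That is no slide-adjusted value. The count was 1 without either control 6 h array or control 24 h replicate 2, 3 without control 24 h replicate 1 or LP-1-cIAP2-eGFP 6 h replicate 2, and 4 without LP-1-cIAP2-eGFP 6 h replicate 1. MX1, a GTPase that blocks RNA viruses, gave 5.73 and 6.37 at 6 h and 5.38 and 6.23 at 24 h against 9.35 and 9.26 at 6 h and 9.24 and 9.75 at 24 h, a difference of -3.47 (SE 0.264, adjusted p = 0.00231). MX1 was detected on 2 of 4 LP-1-cIAP2-eGFP arrays, and with normexp its difference was -2.35. ISG15, the ubiquitin-like modifier, gave 9.87 and 9.59 at 6 h and 9.61 and 10.73 at 24 h against 11.70 and 11.76 at 6 h and 12.48 and 12.69 at 24 h (-2.21, SE 0.262, adjusted p = 0.0101). MX1 and ISG15 did not overlap between the lines on any of the 8 arrays.

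IFIT1, which binds viral RNA, gave 5.82 and 6.89 at 6 h and 9.49 and 9.90 at 24 h against 8.50 and 8.48 at 6 h and 11.61 and 11.48 at 24 h (-2.00, SE 0.252, adjusted p = 0.0121). It was higher at 24 h than at 6 h in both lines, with LP-1-cIAP2-eGFP lower at each time. In untreated cells the IFIT1 difference was 0.13 (adjusted p = 0.751), and the change of the line difference with bortezomib, -2.12 (SE 0.359, adjusted p = 0.202), did not pass. The membrane protein IFITM1 (-3.57, adjusted p = 0.0312, 1 array without a value), the ADP-ribosyltransferase family member PARP9 (-3.15, adjusted p = 0.0152), the radical SAM enzyme RSAD2 (viperin; at least 2.62-fold lower, adjusted p = 0.0230), XAF1 (-1.62, adjusted p = 0.0473), a binding partner of the inhibitor XIAP, and IRF9 (-1.02, adjusted p = 0.0376), the DNA-binding subunit of the interferon-activated complex, also fell. PARP9 was detected on 1 of 4 LP-1-cIAP2-eGFP arrays and differed by -1.29 with normexp, and RSAD2, detected on none, was not called with normexp (-0.96, adjusted p = 0.0747), a smaller fold than the bound given. With normexp 6 of the 40 genes fell. OASL did not pass at -3.43 (adjusted p = 0.0638) but did without the dim array.

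Interferon-stimulated response elements were looked for as GAAA, any 2 bases and GAAA on both strands in the same windows. They were in 17 of 32 interferon-stimulated genes with a promoter (53.1%), in 3 of the 8 that fell and in 3.073% of all promoters. The promoters of ISG15 and IFIT1 are shown, with the matches in capitals and overlapping matches run together, for the genes whose arrays are given above.
ISG15 (chr1:1013364-1013413, plus strand): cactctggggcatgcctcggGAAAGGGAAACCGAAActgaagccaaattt
IFIT1 (chr10:89392487-89392546, plus strand): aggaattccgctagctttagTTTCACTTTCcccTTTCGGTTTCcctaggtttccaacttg

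The endogenous BIRC3 transcript did not pass between the lines under bortezomib. Its probe lies in the 3′ untranslated region, which per the study's methods is not in the construct, so it does not check the overexpression. It gave 12.51 and 12.79 at 6 h and 13.58 and 13.67 at 24 h in LP-1-cIAP2-eGFP against 13.85 and 13.83 at 6 h and 14.04 and 13.83 at 24 h in the control (-0.75, SE 0.210, adjusted p = 0.122), which was -1.19 at 6 h and -0.31 at 24 h. The LP-1-cIAP2-eGFP arrays were all below the control arrays. In untreated cells it was lower in LP-1-cIAP2-eGFP, at -1.57 (adjusted p = 7.59e-05).

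The genes of the pathway itself were tested as 3 lists, beside which 0.776% of all genes rose and 2.4% fell. None of 20 genes of the TRAF and NIK axis passed, with TRAF2 at -0.69 (adjusted p = 0.148), TRAF3 at -0.91 (adjusted p = 0.269) and MAP3K14 (NIK) at 0.34 (adjusted p = 0.178), and none of 6 inhibitor of apoptosis genes did. Of 14 subunits and inhibitors of NF-κB only BCL3, an atypical inhibitor that binds p50 and p52 in the nucleus, was called. It gave 12.24 and 12.85 at 6 h and 10.48 and 10.92 at 24 h against 13.43 and 13.64 at 6 h and 12.32 and 12.67 at 24 h, a difference of -1.39 (SE 0.248, adjusted p = 0.0347). NFKB1 (0.63, adjusted p = 0.0376) and RELB (-0.93, adjusted p = 0.0145) passed the p-value but not the 2-fold limit.

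Of 33 NF-κB target genes tested, 9 fell (27.3%, against 2.4% of all genes) and 1, CCL4, rose (3.03%, against 0.776%), with a median of -0.61. The list includes 13 tested genes that the study had named from these arrays, so its count is no independent evidence of direction. All 9 that fell were among these 13, and of the other 20 genes none fell and 1 rose (median -0.26). Of the 33, 3 were detected on no LP-1-cIAP2-eGFP array and so were tested through the control alone. Genes detected on some arrays can also have passed the filter through only 1 line and were not counted. Without the dim array the counts were again 9 and 1 (median -0.39) and with slide as a block over 16 arrays they were 10 and 2, but 1 gene fell with slide as a block within the 8 arrays, 4 fell without control 6 h replicate 1 and 5 without LP-1-cIAP2-eGFP 6 h replicate 2. Under the block within the 8 arrays FAS was at -1.92 (against -1.82 without it), ICAM1 at -1.47 (-1.44), S100A6 at -2.07 (-1.85) and IRF1 at -1.11 (-1.38). FAS, the death receptor, gave 11.17 and 11.21 at 6 h and 10.80 and 10.97 at 24 h against 13.11 and 13.02 at 6 h and 12.76 and 12.53 at 24 h, a 3.53-fold fall (-1.82, SE 0.117, adjusted p = 0.00134), and was called in 3 of 3 probes. ICAM1, an adhesion molecule that binds leukocyte integrins, gave 11.12 and 10.98 at 6 h and 11.06 and 10.90 at 24 h against 12.37 and 12.31 at 6 h and 12.52 and 12.61 at 24 h (-1.44, SE 0.124, adjusted p = 0.00337). For both genes the lines were apart on all 8 arrays and the dim array lay with its replicate.

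IL23A, the p19 subunit of interleukin 23, gave 8.19 and 7.70 at 6 h and 9.76 and 10.18 at 24 h against 9.54 and 9.27 at 6 h and 11.73 and 12.17 at 24 h (-1.72, SE 0.213, adjusted p = 0.0114). The calcium-binding protein S100A6 gave 8.49 and 8.58 at 6 h and 8.86 and 9.61 at 24 h against 10.70 and 10.28 at 6 h and 11.22 and 10.75 at 24 h (-1.85, SE 0.219, adjusted p = 0.0100). IL23A was higher at 24 h than at 6 h in both lines, and S100A6 did not overlap between them. The other called targets were ASS1, described above, the TNF-induced gene TNFAIP2 (at least 2.87-fold lower, adjusted p = 0.0234), MBP (-2.66, adjusted p = 0.0200, 1 of 3 probes), the lysosomal protease CTSB (-1.38, adjusted p = 0.00297) and the transcription factor IRF1 (-1.38, adjusted p = 0.0187). TNFAIP2 was not called with normexp (-1.22, adjusted p = 0.112), a smaller fold than the bound given. CCL3, the neighbour and close relative of CCL4, gave 16.03 and 14.91 at 6 h and 17.58 and 17.59 at 24 h against 12.32 and 11.88 at 6 h and 16.94 and 16.32 at 24 h and did not pass (2.16, SE 0.547, adjusted p = 0.0953). CCL5, another chemokine, did not pass either (-1.78, adjusted p = 0.0579).

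The κB motif, the known recognition sequence of NF-κB, was looked for on both strands of the same windows and was in 7 of 25 NF-κB targets with a promoter, in 10.2% of 264 genes that fell, in 6.82% of 88 that rose, in 5.85% of tested genes not called and in 5.054% of all promoters. Promoters with a κB match in capitals are shown for IL23A and IRF1, which fell, and for BIRC3, whose endogenous transcript is given above.
IL23A (chr12:56338769-56338818, plus strand): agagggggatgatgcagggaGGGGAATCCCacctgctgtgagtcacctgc
IRF1 (chr5:132490794-132490843, minus strand): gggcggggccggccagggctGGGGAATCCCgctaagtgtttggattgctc
BIRC3 (chr11:102317275-102317384, plus strand): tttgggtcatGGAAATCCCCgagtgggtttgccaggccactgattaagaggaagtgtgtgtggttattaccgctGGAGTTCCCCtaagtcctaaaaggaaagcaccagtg

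Of 23 death receptor and caspase genes 4 fell (17.4%, against 2.4% of all genes) and none rose, with a median of -0.26, and all 4 were receptors. Besides FAS these were the TNF receptor TNFRSF1A (-1.45, adjusted p = 0.0289), the decoy receptor for TRAIL TNFRSF10D (-1.31, adjusted p = 0.00602) and TNFRSF25 (-1.22, adjusted p = 0.0483). TNFRSF1A and TNFRSF25 were not called with slide as a block over 16 arrays. Of 18 BCL2 family genes, 1 fell (5.56%, against 2.4% of all genes), the BH3-only killer protein BIK (-1.75, adjusted p = 0.0329), and BCL2L1, which encodes the survival protein BCL-XL, passed the p-value but not the 2-fold limit (-0.92, adjusted p = 0.0306). BIK was not called with the replicate block (adjusted p = 0.0538).

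None of 42 proteasome subunit genes passed, their differences running from -0.68 to 0.40 around a median of -0.03. None of 11 immunoproteasome and peptide loading genes, 32 heat shock genes (median -0.08), 29 unfolded protein response genes (median 0.03) or 23 NRF2 and oxidative stress genes passed either. Nor did any of 24 genes of G2/M and mitosis, 26 of G1/S and DNA replication or 29 of ubiquitin and autophagy. Among all genes 0.776% rose and 2.4% fell, so a count of 0 in lists of this size lies near the background and is not a result about these genes (limma).

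Within the ATF4 and CHOP targets, which cells raise when amino acids or protein folding fail, 1 of 35 rose (2.86%, against 0.776% of all genes) and 3 fell (8.57%, against 2.4%). The riser was PSAT1. PHGDH, which catalyses the step before PSAT1 in serine synthesis, gave 10.57 and 10.13 at 6 h and 9.77 and 10.30 at 24 h against 13.47 and 13.54 at 6 h and 13.23 and 13.43 at 24 h and fell 9.35-fold (-3.23, SE 0.174, adjusted p = 0.000704), so that successive enzymes of a single pathway lay on opposite sides. NUPR1 and the activin subunit INHBE (-1.98, adjusted p = 0.0209) were the other genes that fell, and INHBE was not called with slide as a block over 16 arrays.

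Metallothioneins, small cysteine-rich proteins that bind zinc and copper, were tested with 8 genes. Of these 3 rose (37.5%, against 0.776% of all genes) and 1 fell (12.5%, against 2.4%), with a median of 1.02. MT2A gave 13.41 and 13.69 at 6 h and 13.83 and 14.02 at 24 h against 12.07 and 12.34 at 6 h and 12.11 and 12.63 at 24 h (1.45, SE 0.168, adjusted p = 0.00947), with every LP-1-cIAP2-eGFP array above every control array. MT1B (1.54, adjusted p = 0.0298) and MT1E (1.38, adjusted p = 0.0342) rose as well, whereas MT1F fell (-1.83, adjusted p = 0.0142), a call that was lost with slide as a block over 16 arrays. With normexp 3 genes of the list again rose, but MT2A (adjusted p = 0.0710) and MT1E (0.90, adjusted p = 0.107) were not among them. MT1B was not called with the replicate block (adjusted p = 0.0523) nor MT1E in the table of the authors (adjusted p = 0.0549). The genes of this family are close copies, and their probes may share signal.

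**Figure D3:**
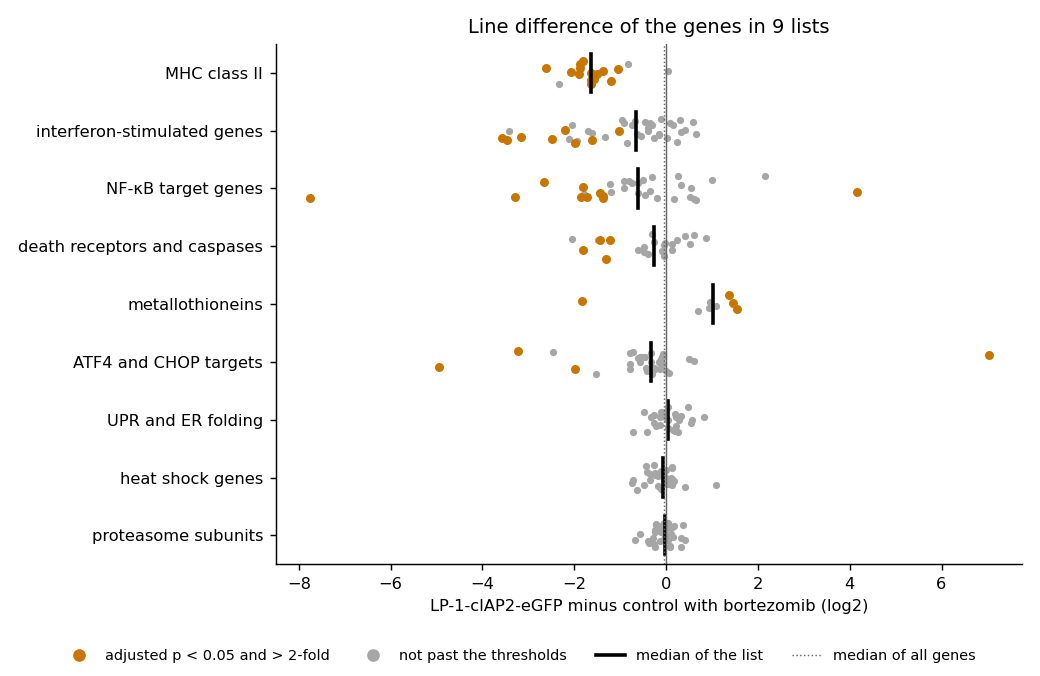
Line difference (LP-1-cIAP2-eGFP minus control, log2, averaged over 6 h and 24 h of bortezomib) of each tested gene in 9 lists; orange points passed an adjusted p of 0.05 and a 2-fold change, grey points did not, and black bars are list medians. The MHC class II median stands at -1.64 with 14 of 17 genes orange, while proteasome subunits gather around -0.03 with none; the 9 orange NF-κB targets below 0 are all genes the study had named.

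The study's own named genes were tested as 1 list, which was chosen by the study on these samples and is not independent evidence of direction. Of 21 tested, 12 fell (57.1%, against 2.4% of all genes) and 2, IGF1 and PSAT1, rose (9.52%, against 0.776%). Of the 7 not called, CALM3 (-0.34, adjusted p = 0.490), IL1RN (0.17, adjusted p = 0.846) and FTH1 (-0.35, adjusted p = 0.151) did not pass the p-value by their brightest probes, and ESR2 was not tested. Other probes passed it under 2-fold for CALM3 (-0.98, adjusted p = 0.0298) and FTH1 (-0.89 and -0.83, adjusted p = 0.0140 and 0.0242), while a further FTH1 probe was at -0.06 (adjusted p = 0.758). Another IL1RN probe was at -2.27 (adjusted p = 0.0588) and was called without the dim array (-2.60, adjusted p = 0.0268). Those not yet described were the actin-bundling protein FSCN1 (-2.30, adjusted p = 0.0365), the transcription factor RUNX1 (-2.04, adjusted p = 0.00284) and protein S, PROS1 (-1.21, adjusted p = 0.0254), which fell. PROS1 was not called with normexp (-1.29, adjusted p = 0.0636). TCEAL1 (0.98) and CD44 (0.89) were higher but stayed under 2-fold.

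Transcripts called at one time mostly had a line difference of the same sign at the other. At 6 h alone 219 probes passed (0.753%), 61 higher and 158 lower, and at 24 h alone 208 did (0.715%), 71 higher and 137 lower. Without the filter on signal the balance at 24 h turned to 34 higher and 27 lower. No array is shared between the times. Of the 219 probes called at 6 h, 212 had the same sign at 24 h (96.8%, against 61.3% of all probes) and 124 were called there too. The median rise of 2.62 at 6 h was 1.92 for the same probes at 24 h, and the median fall was -2.81 and then -1.98. Of the 208 probes called at 24 h, 201 had the same sign at 6 h. Their median rise was 2.26 at 24 h and 1.80 at 6 h, and their median fall -2.35 and -2.05. Each set was smaller at the time where it had not been chosen, so these medians show no trend with time. Counts at a single time rest on 2 arrays a line and were unstable. At 6 h 2 probes passed without either LP-1-cIAP2-eGFP 6 h array, 0 without control 6 h replicate 1 or 2 (limma, 1423 and 1717 with an unadjusted p under 0.05), 35 without either control 24 h array and 816 without either LP-1-cIAP2-eGFP 24 h array. At 24 h 410 passed without the dim array, 8850 when the dim array alone stood for its condition, 2 without either LP-1-cIAP2-eGFP 6 h array, 4 without either control 6 h array, and 0 without control 24 h replicate 1 or 2 (limma, 2656 and 3031 with an unadjusted p under 0.05).

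No probe passed the test of a change of the line difference between the times (0%, limma, lowest adjusted p = 0.429), where 1411 had an unadjusted p under 0.05, and none did without the dim array, where 2502 had. When the dim array alone stood for its condition, 7308 did. The genes with the smallest p in each direction are given as values. HBEGF, a ligand of the EGF receptor, gave 2.67 and 3.10 at 6 h and 5.85 and 6.17 at 24 h against 6.88 and 6.64 at 6 h and 4.24 and 5.00 at 24 h, with detection on neither LP-1-cIAP2-eGFP array at 6 h and on 1 of 2 arrays of each line at 24 h. At 6 h it was therefore at least 3.62-fold lower in LP-1-cIAP2-eGFP, and its change between times has no measured size. RGS2, a brake on G protein signalling, gave 11.92 and 11.64 at 6 h and 15.17 and 14.82 at 24 h against 14.52 and 14.27 at 6 h and 14.62 and 14.60 at 24 h, with the lines close at 24 h. HBD, delta globin, gave 11.59 and 11.34 at 6 h and 6.69 and 6.74 at 24 h against 8.28 and 7.83 at 6 h and 6.55 and 6.20 at 24 h, with the gap seen mainly at 6 h. The change between times had an adjusted p of 0.429 for HBEGF and was 3.00 (adjusted p = 0.510) for RGS2, -3.07 (adjusted p = 0.698) for HBD and -2.42 (adjusted p = 0.429) for SPP1.

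**Figure D4:**
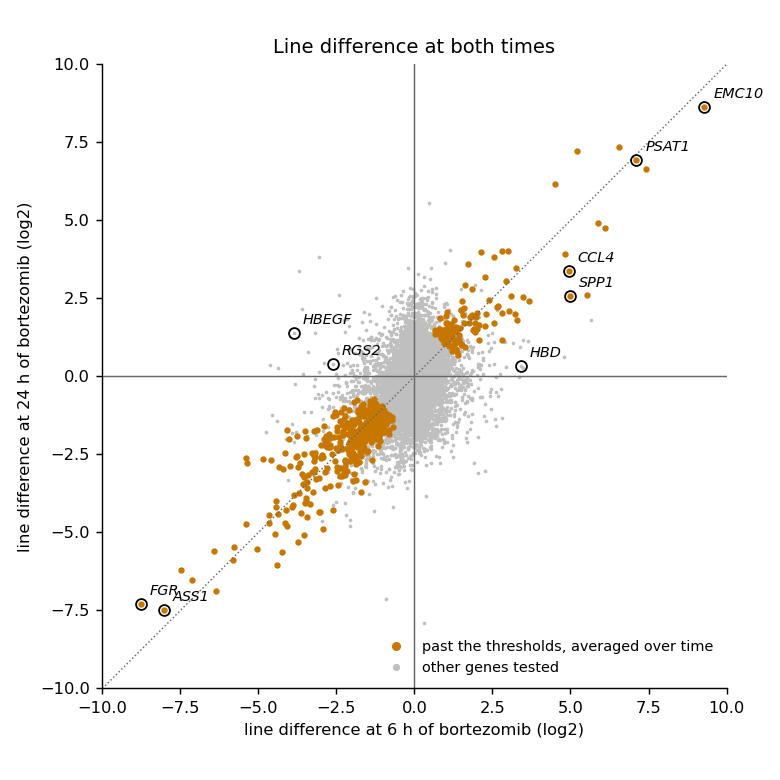
Line difference (log2) at 6 h (x axis) and at 24 h (y axis) of bortezomib for 15083 genes; orange marks genes called in the average over time, and the dotted line marks equal differences. EMC10 and FGR lie far from 0 with the same sign at both times, while HBEGF, undetected in LP-1-cIAP2-eGFP at 6 h, is plotted at -3.87 at 6 h and 1.39 at 24 h.

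Nearly all transcripts called under bortezomib differed in the same direction without the drug. The untreated arrays, none of which enter the bortezomib comparison, gave 1326 called probes (4.56%), 335 higher and 991 lower. Of the 710 probes called under bortezomib, 701 had the same sign in untreated cells (98.7%, against 68.0% of all probes) and 564 were called there as well. FGR was detected on no LP-1-cIAP2-eGFP array with or without the drug, and was at least 483-fold lower there in untreated cells and at least 104-fold lower with the drug. SPP1 was 5.35 against 3.78. The MHC class II median was -1.69 in untreated cells.

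No probe passed the test that the line difference under bortezomib differs from that in untreated cells (0%, limma, lowest adjusted p = 0.0649), where 1359 had an unadjusted p under 0.05. The smallest p belonged to FGR (adjusted p = 0.101), whose change has no measured size because it was undetected in LP-1-cIAP2-eGFP, KRT7 (1.56, adjusted p = 0.101, with 1 array missing so that the 24 h value of its LP-1-cIAP2-eGFP cells rests on the dim array, and an averaged line difference of 0.85 with all arrays and -0.13 without the dim one), P2RY6 (-1.80, adjusted p = 0.0649) and SPP1 (-1.57, adjusted p = 0.0649). P2RY6, a receptor for UDP, gave 11.46 and 11.38 at 6 h and 10.38 and 10.91 at 24 h against 8.31 and 8.21 at 6 h and 9.56 and 9.59 at 24 h under bortezomib and a difference of 2.12, against 3.92 untreated. CCL4 was 2.28 untreated and 4.16 with the drug. Without the dim array 6 probes passed this test, of which 4 have a symbol: the adhesion receptor ADGRG1 (-2.31), P2RY6 (-1.66), the glycolipid anchor enzyme PIGM (-1.55) and the hydroxylase ASPH (1.08). ADGRG1, PIGM and ASPH are named here after their values were seen. Single arrays left out gave 0 to 6 probes, or 5619 when the dim array alone stood for its condition.

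**Figure D5:**
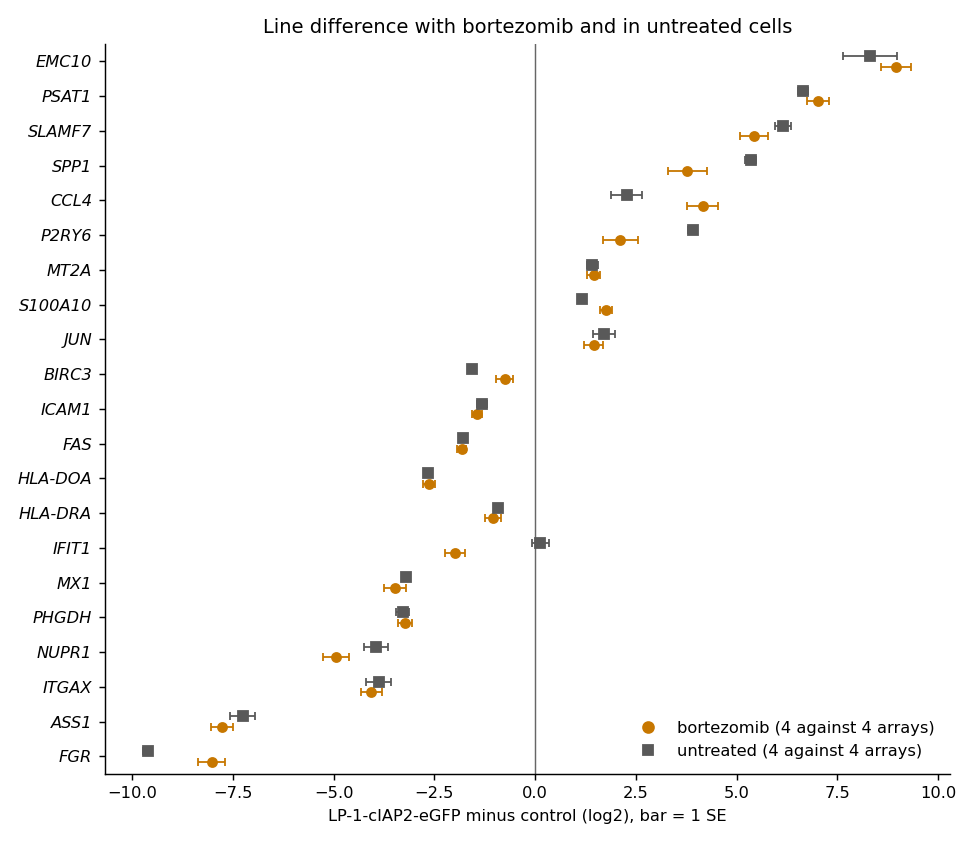
Line difference (LP-1-cIAP2-eGFP minus control, log2) with bortezomib (orange circles) and in untreated cells (grey squares), each from 4 against 4 arrays, bars 1 SE, for 21 genes. Most pairs lie close together, as for HLA-DRA at -1.05 with the drug, while IFIT1 lies at -2.00 with the drug and 0.13 without.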

How the data were processed

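RNA from the cIAP2 line and its eGFP control, untreated or with bortezomib, was labelled with Cy3 and hybridized to Agilent 8x60K arrays by the authors, who deposited the scanner output of 16 arrays. The deposited intensity values are the processed signals of Agilent's scanner software, background-corrected and not yet normalized between arrays. The deposited table of log2 values was quantile normalized by the authors and centred per probe, and was used only as an alternative.

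Control spots and outlier flags were left out. Signals of the 16 arrays were quantile normalized on the log2 scale, replicate spots were averaged, and a probe was kept if some bortezomib condition had it well above background on each of its arrays. Differences were fitted with limma 3.58.1 in R 4.3.3 (lmFit and eBayes, 8 bortezomib arrays, time as covariate) and called at an adjusted p of 0.05 (Benjamini-Hochberg) and 2-fold. The steps were tested on simulated data. The number of arrays limits the precision. Symbols came from the unversioned RefSeq accession, matched for 28174 of 50599 gene probes (55.7%), and genes were read from the brightest probe. Quantile normalization takes the signal distribution of all arrays as 1 shape, so that a difference in total RNA output is not measured.

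The arrays, gene lists and tests were chosen with earlier results of these data known, and gene lists were therefore described by counts and medians. Genes were named by rule: the 12 largest rises and 12 largest falls called with and without the dim array, not overlapping at either time and well above background on all arrays of the brighter line, then called genes of each list, the genes with the smallest p for change with time or treatment, BIRC3, and genes the study named. A level below background on all 4 arrays of a line is given as a bound, the mean of the brighter line against, per array, the dimmest signal well above background or the probe's own where higher. Alternatives were another scaling, background correction, filters, replicate and slide blocks, array weights and each array left out. Some genes are not reported here and were passed over in these ranks.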

Additional observations from a re-analysis of the deposited data

Results flagged for a closer look

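The dim array (LP-1-cIAP2-eGFP, 24 h of bortezomib, replicate 1) had a log2 median signal of 3.18 over gene spots, far from the other 7 bortezomib arrays, the nearest of which was at 5.73. SLC12A7, the potassium chloride cotransporter, had a log2 signal of 7.17 on LP-1-cIAP2-eGFP 6 h replicate 1, apart from the other 3 arrays of that line, the nearest of which was at 5.79, while the control arrays lay between 9.58 and 12.24. These were 2 of 50 sets of arrays tested for a value far from the rest, where chance gives about 1 in 20.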

How the results depend on the processing

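Of the named genes, 74 were followed through the settings, 38 of them under the all-array filter, and their averaged line differences kept their sign. Those of KRT7 and IL1RN, not among them, turned without the dim array, from 0.85 to -0.13 and from 0.17 to -0.27. The 710 probes called over both times became 370 without the filter on signal, 384 with probes detected on all 8 arrays (147 higher, 237 lower), 30 with slide as a block, 1276 with array weights, 1315 in a model of all 16 arrays, 284 with time left out and 31 at an adjusted p of 0.001, and 218 to 976 with single arrays left out. Scaling to the 75th percentile moved the median difference over all probes from -0.06 to 0.05. The 219 probes called at 6 h became 41 without the filter, 85 with the replicate block, 1227 with array weights, 0 with slide as a block (limma, 1386 with an unadjusted p under 0.05), and 0 to 816 with single arrays left out. The 208 called at 24 h became 61 without the filter (34 higher, 27 lower, against 71 and 137), 393 with the all-array filter, 25 with the replicate block, 0 with slide as a block (limma, 3084 with an unadjusted p under 0.05) or with array weights (2119), and 0 to 8850 with single arrays left out. For the change between times the all-array filter gave 1 probe and single arrays left out gave 0 to 7308. For the change with bortezomib, 75th percentile scaling gave 2, normexp 5, the table of the authors gave 1, no filter 5, the all-array filter 13, the replicate block 5, and single arrays left out 0 to 5619. The 1326 probes called in untreated cells became 750 with normexp, 877 with the all-array filter, and 1155 to 1418 with single arrays left out. The cause of these changes in count was not tested.

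Replicate numbers did not pair the arrays: deviations of same-numbered arrays correlated at -0.0133 to 0.249 over condition pairs, and the averaged count with the replicate block was 639. Of the 68 named genes called with all arrays, 65 were called with the replicate block, 60 with normexp, 67 without the dim array, 63 with slide as a block over 16 arrays (an alternative chosen after seeing the data), 9 with slide as a block within the 8 arrays and 36 without control 6 h replicate 1. Of 26 named genes detected on only some arrays of the dimmer line, the fold was over 1.5 times smaller with normexp for 22. Detection limits the lower side of falls: 88 of the probes called lower were detected on no LP-1-cIAP2-eGFP array, and 10 called higher on no control array.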

Other observations

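Of 26 myeloma surface antigens tested, SLAMF7 and CD48 rose (7.69%, against 0.776% of all genes) and ICAM1 fell (3.85%, against 2.4%), CD48, a ligand of the NK cell receptor CD244, by 1.66 (adjusted p = 0.0114) (limma). Without the dim array 4 were higher and 1 lower, the same counts as with slide as a block over 16 arrays. SDC1, the plasma cell proteoglycan CD138, was at 1.22 (adjusted p = 0.126) with all arrays and was called without the dim array (1.47). Beside the counts that follow, 0.776% of all genes rose and 2.4% fell, and most of these lists hold only 1 or 2 called genes. Of 26 adhesion and integrin genes (3.85% higher, 7.69% lower), the integrin alpha chain ITGA8 rose (2.73, adjusted p = 0.00905), and ITGAX, the alpha chain of complement receptor 4, fell (-4.06, adjusted p = 0.00135) with ICAM1, which is in both lists. ITGAX was detected on 2 of 4 LP-1-cIAP2-eGFP arrays and differed by -2.79 with normexp. Of 12 genes of the IGF1 axis (8.33% in each direction), IGF1, a growth factor for myeloma cells, rose (1.73, adjusted p = 0.00207) and its binding protein IGFBP6 fell (-2.35, adjusted p = 0.0343). IGF1 was detected on 3 of 4 LP-1-cIAP2-eGFP arrays and was called with normexp at 1.11, whereas IGFBP6 was not called with normexp (-1.93, adjusted p = 0.0634). Of 20 cathepsin and lysosome genes, CTSF (-3.14, adjusted p = 0.000356) and CTSB fell (10.0%) and none rose.

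The S100 genes, which encode small calcium-binding proteins, also split. S100A11 (1.82, adjusted p = 0.00310) and S100A10 (1.76, adjusted p = 0.00300) rose, and S100A6 and S100A1 (-1.73, adjusted p = 0.0134) fell, among 3 that rose and 3 that fell of 19 annexin and S100 genes (15.8% in each direction). Of 23 immediate-early genes (4.35% higher, 13.04% lower) JUN rose (1.45, adjusted p = 0.0249), a call lost with slide as a block over 16 arrays, while the MAP kinase phosphatases DUSP10 (-2.40, adjusted p = 0.0102) and DUSP6 (-2.27, adjusted p = 0.0222) and the AP-1 subunit FOSL2 (-1.11, adjusted p = 0.0290) fell. With normexp S100A1 (adjusted p = 0.0521) and FOSL2 (-0.46, adjusted p = 0.348) were not called. Of 24 p53 targets and CDK inhibitors (4.17% higher), CDKN1C rose at 1.06 (adjusted p = 0.0490) and did not pass without the dim array (adjusted p = 0.0510) or with the replicate block (adjusted p = 0.0748). None of 36 cytosolic ribosomal protein genes (median -0.07) and none of 11 MHC class I and NK ligand genes (median -0.25) passed, nor did any marker of myeloid, T and NK, or epithelial and stromal cells with all arrays, while without the dim array 1 T and NK marker was higher and 1 lower. Of 18 chemokine genes (5.56% higher) CCL4 rose and none fell, and without the dim array 2 were higher and 1 lower. Of 11 Src-family kinase genes (9.09% lower) FGR fell and none rose, and without the dim array 1 was higher and 2 lower.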
